A study of Mus musculus with 24 samples.

Results

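Glutamate receptors and the proteins that assist or anchor them are described here by the level of 32 genes in the hippocampal RNA of 24 mice. The genes were taken by symbol and class and not by a threshold on their values, though with earlier results of these data known, and all 32 were found among the 55385 gene identifiers counted. They code for 4 AMPA receptor subunits (Gria1 to Gria4), 5 kainate receptor subunits (Grik1 to Grik5), 7 NMDA receptor subunits (Grin1, Grin2a to Grin2d, Grin3a and Grin3b), 1 delta receptor subunit (Grid1), 6 metabotropic receptors (Grm2, Grm3, Grm4, Grm5, Grm7 and Grm8) and 9 auxiliary or anchoring proteins (Neto1, Neto2, Cnih2, Cnih3, Shisa6, Shisa7, Shisa9, Grip1 and Grip2). Each of 6 groups held 4 mice, called A to D. All mice carried floxed Tsc1 on both alleles (Tsc1f/f), were 16 to 22 weeks old and had received tamoxifen. Control mice lacked the Cre transgene (Tsc1-Cre-, Tsc1f/f-Tg(Camk2a-CreERT2-)) and were taken on day 8. Cre-carrying mice (Tsc1-Cre+, Tsc1f/f-Tg(Camk2a-CreERT2+)) were taken on day 4, 6, 8 or 13. A further Cre-carrying group, Tsc1-Cre+-Rap 4, was given rapamycin, an inhibitor of the mTOR kinase, at 10 mg/kg from day 4 and was taken on day 13. Cre is driven by Camk2a sequence, so Tsc1 is removed from CAMK2A-expressing neurons and kept in the other cells of the hippocampus. The study asked which transcripts changed before, around and after the first seizures, and which of these changes were absent under rapamycin.

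Glutamate is the main excitatory transmitter of the hippocampus. AMPA receptors are tetramers that carry most of the fast synaptic current, NMDA receptors are calcium-permeable and need both glutamate and a co-agonist, and kainate receptors act on both sides of the synapse. Metabotropic receptors signal through G proteins, with Grm5 of group I mainly postsynaptic and Grm2 and Grm3 of group II often presynaptic or glial. Auxiliary proteins bind the channel and set its gating or its transport to the surface: the cornichons CNIH2 and CNIH3 and several SHISA proteins bind AMPA receptors, NETO1 and NETO2 bind kainate receptors, and GRIP1 and GRIP2 are scaffolds that hold AMPA receptor tails.

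Between 28208561 and 126435936 reads were counted per mouse. The targeted gene Tsc1 lay between 102.5 and 109 CPM in control mice and between 57.4 and 81.7 CPM over all Cre-carrying mice, lower in each of them than in every control mouse. CPM are counts per 1000000, with the library size scaled by the TMM factors of edgeR over all 24 mice. Animal numbers come in series, and control and day 8 mice share theirs, whereas each of the other groups has its own, so that time or treatment and number series cannot be told apart for day 4, day 6, day 13 and Rap 4. The sources used here do not say what a series stands for. On day 13, mice A and B shared a series, held the largest libraries and stood apart from mice C and D in many members. Day 13 results are therefore also given without them, an alternative chosen after the values were seen. All markers of pyramidal and granule neurons, interneurons and glia had reads in every mouse, as hippocampal tissue should.

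Levels were compared between genes per kilobase of exonic sequence, in the control mice. Gria1 was highest at 206 ± 16.5 CPM per kb (SD, n = 4 mice), more than any other member in every control mouse. Gria2 (90.7 CPM per kb), Grin2b (89.1) and Cnih2 (86.1) followed, and these neighbors in the order overlapped between mice. Grin2a was at 69.5 CPM per kb and Grm5, the group I receptor among the members, at 54.6 CPM per kb, each without overlap with the next gene. Grm3 and Gria3 stood at 31.2 and 30.1 CPM per kb and overlapped. From Grik5 (23.8 CPM per kb) down to Grin2c (10.3 CPM per kb) lay 13 genes, most of which overlapped with their neighbor. The lowest levels were those of Grm4 (2.35 CPM per kb), Grm8 (1.30), Grip2 (1.28), Grin2d (0.834) and Grin3b (0.165 CPM per kb). In Grin3b, 32.1% of the exonic bases also lie in exons of Tmem259 on the opposite strand, and the strand setting of the counting is not given in the sources used here, so that its reads may include reads of that gene.

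**Figure D1:**
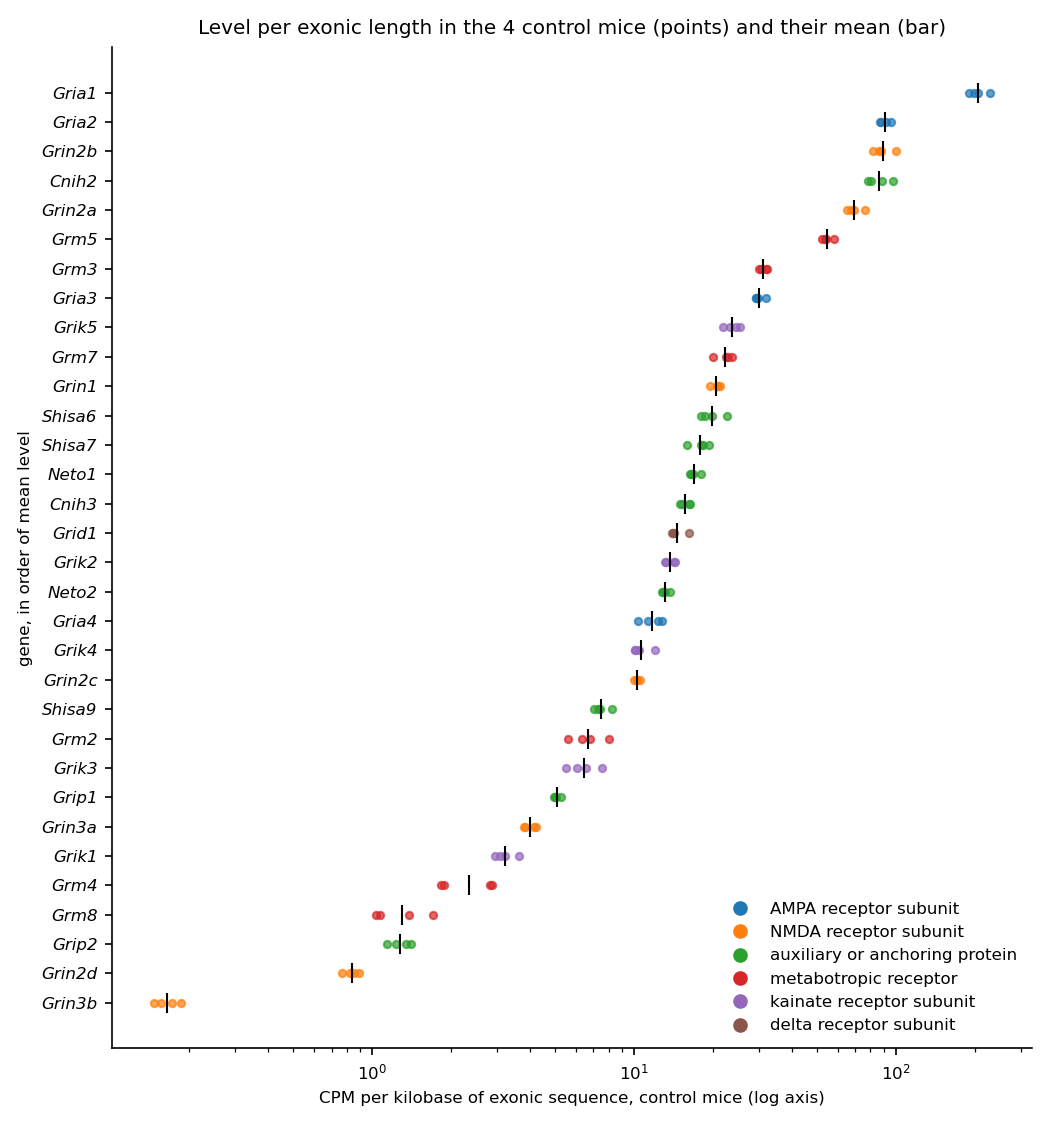
Level of each of the 32 genes in the 4 control mice, in CPM per kilobase of exonic sequence on a log axis; points are mice, the black bar is their mean, and colors mark the receptor class. The genes span from 0.165 (Grin3b) to 206 CPM per kb (Gria1).

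The study's thresholds were used, so that a gene was called when edgeR's quasi-likelihood test gave it an adjusted p under 0.05 and its log2 fold change was beyond 0.5 in either direction. All 32 members passed edgeR's filter on low counts in all 7 comparisons. On day 4, 1 of 32 members was called, Grik5, which rose (0.680% of all genes tested were called). On day 6 it was again Grik5 alone that was called (1.32% of all genes). No member was called on day 8, by edgeR or by DESeq2 on the same mice, when 3.99% of all genes were, although 9 members had an unadjusted p under 0.05 (28.9% of all genes). On day 13, 5 members were called (15.6%, against 16.5% of all genes): Grik5 and Cnih3 rose, and Grin2d, Grm3 and Grm5 fell. The member share was close to the background of all genes. No member was called between Rap 4 and control mice by edgeR or DESeq2 (1.41% of all genes), with 4 members at an unadjusted p under 0.05 (18.1% of all genes). In Rap 4 mice against day 13, 7 members were called (21.9%, against 21.1% of all genes): Gria2, Grik1, Grin2d and Grm5 were higher and Grik5, Cnih2 and Cnih3 lower under rapamycin. No gene at all was called between day 13 and day 8 by edgeR, in which 4 members had an unadjusted p under 0.05 (14.1% of all genes), and DESeq2 on the same mice called no member. The counts moved with single mice. On day 6, no member was called without control mouse B, control mouse D or day 6 mouse C (all genes: 0.852 to 1.24%). On day 13 it was 3 without control mouse A, 2 without control mouse C, 1 without control mouse B or D (all genes: 11.1 to 12% over the 4 fits), and 10 without day 13 mouse C (all genes: 19.7%). Between Rap 4 and day 13 it was 4 without day 13 mouse B (all genes: 15.5%) and 11 without day 13 mouse C (23.4%). Without both day 13 mice A and B it was 3 in each, Grik5, Cnih2 and Cnih3 (all genes: 9.67% and 13.2%). The comparisons with control share the 4 control mice, the 2 comparisons of Rap 4 share the Rap 4 mice, and 3 comparisons share the day 13 mice. In bulk RNA, a lower level can mean fewer cells that express a gene or less RNA per cell, which cannot be told apart here.

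Without the minimum on the fold, 5 members passed on day 4 (all genes: 4.16%), 5 on day 6 (10.1%), 3 on day 8 (13.3%) and 1 between Rap 4 and control (3.57%), shares of 3.12 to 15.6%. These counts also moved with single mice. On day 4 it was 1 without control mouse D or day 4 mouse B or C, 2 without control mouse B or day 4 mouse A, and 3 without control mouse C. Over these fits, 0.912 to 1.96% of all genes passed as higher and 0.342 to 0.993% as lower. On day 6 it was 8 without control mouse A, 3 without control mouse C or day 6 mouse C, and 2 without control mouse D or day 6 mouse D. Of all genes, 6.93% passed as higher and 4.51% as lower without control mouse A. In the other fits named it was 3.8 to 4.84% and 1.98 to 2.89%. On day 8 it was 1 without control mouse A or D or day 8 mouse A, and 2 to 4 otherwise. There, 4.91 to 9.82% of all genes passed as higher and 2.01 to 6.1% as lower. On day 13, 14 of 32 members passed (43.8%, against 26.9% of all genes). Of these, 10 were lower (31.2%, against 11.3%) and 4 higher (12.5%, against 15.6%). In 12 members all day 13 mice lay below all control mice (37.5%, against 13.7% of all genes), and in 4 all lay above (12.5%, against 17.1%). Without mice A and B, 9 were lower (all genes: 8.14%) and 4 higher (12.7%). Without any 1 control mouse, between 1 and 3 were lower (all genes: 6.04 to 6.67%). Without day 13 mouse A, 6 were lower (8.18%), and without mouse B 5 (7.96%). Without day 13 mouse C, 15 were lower (all genes: 11.6%). In Rap 4 mice against day 13, 9 members were higher (28.1%, against 13.1%) and 4 lower (12.5%, against 17.7%) without the fold minimum, 13 in all (all genes: 30.8%). The higher count was 5 without Rap 4 mouse A and 4 without Rap 4 mouse B (all genes: 8.81 and 8.53%). It was 13 without day 13 mouse C (13.4%) and 7 without day 13 mice A and B (9.45%). With all mice, 11 members lay above all day 13 mice in every Rap 4 mouse (34.4%, against 15.0%) and 3 below (9.38%, against 17.7%). The median log2 fold change of the members was -0.28 on day 13 (-0.18 without mice A and B), where that of all genes tested was -0.04, with 24 members below 0. It was -0.01 on day 4, -0.02 on day 6, -0.10 on day 8 and -0.01 in Rap 4 mice against control, and 0.31 in Rap 4 mice against day 13 (0.09 without day 13 mice A and B). The members were not matched to all genes for level, on which the power of the test depends: their median control level was 83.8 CPM, against 5.29 CPM over the genes tested on day 13.

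**Figure D2:**
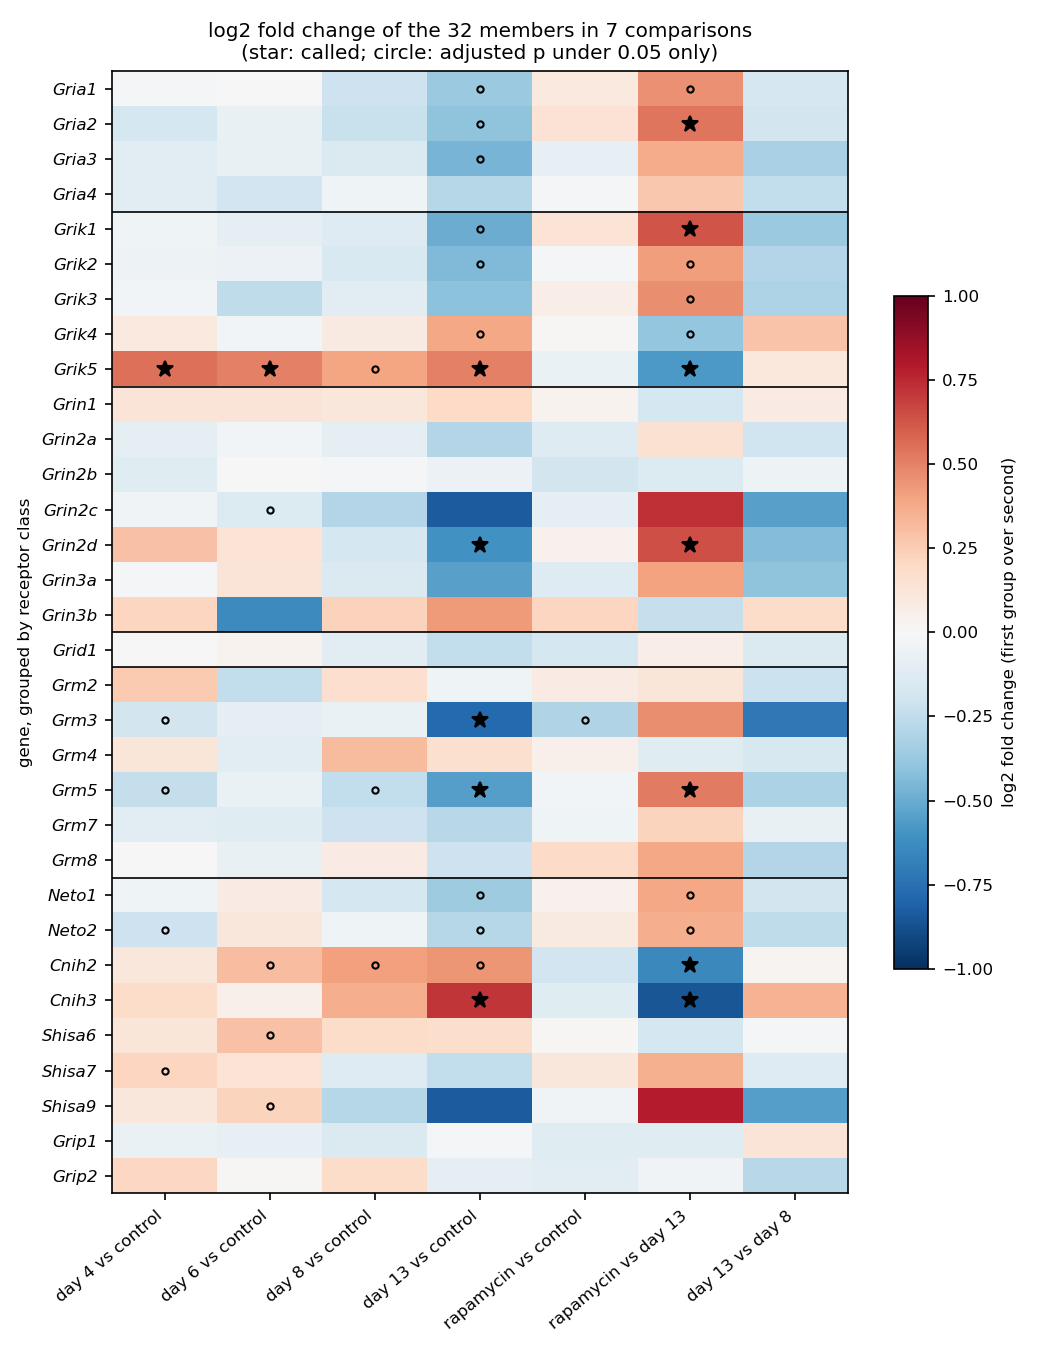
Log2 fold change of the 32 members (rows, grouped by receptor class and divided by lines) in the 7 comparisons (columns), as the first group over the second; red is higher, blue lower, a star marks a called gene and a circle an adjusted p under 0.05 with a smaller fold. Stars are at Grik5 on days 4, 6 and 13, at 4 further members on day 13, and at 7 members between Rap 4 and day 13, and none is in the Rap 4 against control column.

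The promoters of called members are shown because the calls concern transcript levels and Grik5, Cnih2 and Cnih3 were lower together under rapamycin than on day 13. RefSeq entries on GRCm38.p6 matched 20 of the 32 members and 6 of the 8 called in any comparison. The 250 bases before the start are printed 5′ to 3′ on the gene's own strand, first for the 3 members that were lower under rapamycin than on day 13, then for 3 that fell on day 13 or were higher under rapamycin. Capitals mark matches on either strand to GGGCGG (the core of the GC box bound by SP factors), CACGTG (an E box) or GGACAGC (part of the RE1 element bound by REST). The windows are chr7:25072370-25072619 (minus strand), chr19:5098522-5098771 (minus), chr1:181352378-181352627 (plus), chr3:80802836-80803085 (minus), chr7:45866682-45866931 (minus) and chr5:9725353-9725602 (minus).
Grik5: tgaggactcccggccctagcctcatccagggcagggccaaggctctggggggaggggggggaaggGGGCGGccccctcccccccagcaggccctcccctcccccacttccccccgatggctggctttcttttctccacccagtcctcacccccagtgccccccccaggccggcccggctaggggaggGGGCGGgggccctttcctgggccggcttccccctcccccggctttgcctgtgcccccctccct
Cnih2: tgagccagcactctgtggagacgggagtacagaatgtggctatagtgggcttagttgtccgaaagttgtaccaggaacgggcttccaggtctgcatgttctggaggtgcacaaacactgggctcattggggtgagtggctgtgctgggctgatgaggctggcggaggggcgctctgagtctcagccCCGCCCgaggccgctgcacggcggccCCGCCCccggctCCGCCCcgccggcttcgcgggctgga
Cnih3: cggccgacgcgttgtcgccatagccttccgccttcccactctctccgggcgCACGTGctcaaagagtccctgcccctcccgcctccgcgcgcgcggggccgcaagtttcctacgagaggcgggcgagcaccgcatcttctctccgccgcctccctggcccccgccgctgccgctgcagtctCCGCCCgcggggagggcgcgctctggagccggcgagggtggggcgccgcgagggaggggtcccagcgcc
Gria2: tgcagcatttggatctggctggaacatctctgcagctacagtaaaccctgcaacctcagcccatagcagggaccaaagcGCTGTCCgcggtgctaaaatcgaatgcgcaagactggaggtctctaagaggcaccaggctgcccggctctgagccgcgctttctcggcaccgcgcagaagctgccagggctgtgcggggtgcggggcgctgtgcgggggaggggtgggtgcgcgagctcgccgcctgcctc
Grin2d: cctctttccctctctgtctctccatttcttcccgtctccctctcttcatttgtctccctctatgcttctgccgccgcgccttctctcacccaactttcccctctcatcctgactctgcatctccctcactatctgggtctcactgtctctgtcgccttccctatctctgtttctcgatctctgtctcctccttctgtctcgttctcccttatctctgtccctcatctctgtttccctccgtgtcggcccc
Grm3: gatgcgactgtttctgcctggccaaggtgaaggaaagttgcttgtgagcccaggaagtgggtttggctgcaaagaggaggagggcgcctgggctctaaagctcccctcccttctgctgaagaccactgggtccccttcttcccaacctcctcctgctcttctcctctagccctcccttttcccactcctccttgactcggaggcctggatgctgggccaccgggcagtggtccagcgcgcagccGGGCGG
GGGCGG stood in the Grik5 window 2 times, in Cnih2 3 times and in Cnih3 and Grm3 1 time each, and in 13 of the 20 member genes with an entry, against 32.7% of 32851 mouse promoter windows of this length. CACGTG stood in Cnih3, in 2 of 20 member genes and in 6.02% of all windows. GGACAGC stood in Gria2, in 2 of 20 member genes and in 5.28% of all windows. A member gene was counted if any of its windows matched, whereas the shares are over single windows. The windows were not matched for G and C content either, so counts and shares are not like for like. The G and C content ran from 54.4% in Grin2d to 76.0% in Cnih3. The RefSeq start of Grin2d lies inside the gene as GENCODE annotates it, so its window is one of several possible promoters. A match to these letters is a description of the sequence and was not tied to any factor's binding.

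Of the 4 AMPA receptor subunits, Gria1, Gria2 and Gria3 had an edgeR adjusted p under 0.05 on day 13, each with a negative log2 fold change under the fold minimum, and none of the 3 passed without mice A and B. Gria1, the subunit that with Gria2 makes up most hippocampal AMPA receptors, lay at 1386, 1245, 1156 and 1202 CPM in control mice A to D, at 859, 835, 1145 and 1071 CPM on day 13 and at 1343, 1476, 1194 and 1322 CPM in Rap 4 mice. All day 13 mice lay below all control mice (log2 fold change -0.37, edgeR adjusted p = 0.0456, and -0.17, edgeR adjusted p = 0.167 without mice A and B), and Rap 4 mice overlapped with control. Gria2, whose edited subunit makes the channel impermeable to calcium (ENSMUSG00000033981.14, chr3:80681450-80802835, minus strand), lay at 1491, 1367, 1353 and 1432 CPM in control, 1205, 1284, 1301 and 1203 CPM on day 4 and 1471, 1289.8, 1376 and 1253 CPM on day 6. It lay at 1196, 1230.3, 1117 and 1347 CPM on day 8, 893, 988, 1318 and 1131 CPM on day 13 and 1543, 1591, 1501 and 1603 CPM in Rap 4 mice. Every Rap 4 mouse was above every control and every other Cre-carrying mouse, and day 13 mice A and B were the lowest of all 24. On day 13 Gria2 was lower than in control by 0.40 on the log2 scale, under the fold minimum (edgeR adjusted p = 0.0326, and -0.21, edgeR adjusted p = 0.0937 without mice A and B). It was called higher in Rap 4 mice than on day 13 (log2 fold change 0.53, SE 0.117, edgeR adjusted p = 0.00803). That call rested on the fold minimum: without day 13 mouse A the log2 fold change was 0.45, without mouse B 0.48 and without both 0.35 (edgeR adjusted p = 0.00973).

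Gria3, a less abundant subunit, ranged from 289 to 314 CPM in control and from 164 to 266 CPM on day 13 (log2 fold change -0.46, edgeR adjusted p = 0.0483), with no overlap, and was at -0.19, edgeR adjusted p = 0.0580 without mice A and B. For Gria3, the mice of day 4 (257 to 283 CPM) and Rap 4 (274 to 286 CPM) also lay below all control mice. Gria4, common in interneurons, did not pass and ranged from 65.6 to 80.5 CPM in control and 46.5 to 71.5 CPM on day 13, where mouse B was the lowest and mouse C lay within the control range (log2 fold change -0.29, edgeR adjusted p = 0.132). The share of Gria2 among the reads of Gria1 to Gria4 was 45.7, 46.1, 47.0 and 47.6% in control mice A to D, 42.6, 44.0, 46.3 and 44.1% on day 4, 46.0, 46.2, 45.8 and 44.1% on day 6 and 44.9, 45.1, 46.5 and 47.6% on day 8. It was 44.6, 48.6, 47.1 and 44.9% on day 13 and 47.6, 46.6, 49.1 and 49.0% in Rap 4 mice. The groups overlapped in all 7 comparisons: the mean differed from control by -2.33 percentage points on day 4 (two-sided exact permutation test, p = 0.0857), by -0.311 on day 13 (exact p = 0.771) and by 1.46 in Rap 4 mice (exact p = 0.114). None was under 0.05, also before adjustment over the 14 ratio tests. A shift in the composition of AMPA subunit reads was thus not shown by these tests, with per-mouse shares from 42.6 to 49.1% over the 24 mice.

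The kainate receptor subunits moved in both directions. Grik5 codes for GluK5, a high-affinity subunit that forms channels only together with GluK1, GluK2 or GluK3 (ENSMUSG00000003378.9, chr7:25009849-25072346, minus strand). It lay at 131, 119.7, 126 and 114 CPM in control mice A to D, 179, 191, 172 and 178 CPM on day 4 and 162, 172, 191 and 177 CPM on day 6. On day 8 it lay at 178, 197, 126 and 150.3 CPM, on day 13 at 178, 139.8, 182 and 205 CPM and in Rap 4 mice at 119.7, 131, 97.3 and 122 CPM. On days 4, 6 and 13 every mouse was above every control mouse, on day 8 mouse C lay among the controls, and Rap 4 mice overlapped with control. The rise was called on day 4 (log2 fold change 0.55, SE 0.0492, edgeR adjusted p = 0.000313) and on day 6 (log2 fold change 0.51, SE 0.0531, edgeR adjusted p = 8.24e-05). On day 8 it was 0.39 on the log2 scale (SE 0.115, edgeR adjusted p = 0.0459), under the fold minimum. On day 13 it was called (log2 fold change 0.50, SE 0.116, edgeR adjusted p = 0.0125), and without mice A and B it was 0.65 (edgeR adjusted p = 0.000347). Grik5 was lower in Rap 4 mice than on day 13 (log2 fold change -0.58, SE 0.131, edgeR adjusted p = 0.00953) and did not pass the test against control (log2 fold change -0.06, edgeR adjusted p = 0.735).

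The Grik5 call on day 4 held with each of the 8 mice left out in turn (log2 fold change 0.52 to 0.58). On day 6 the fold fell just under the minimum without control mouse B (0.49), control mouse D (0.47) or day 6 mouse C (0.47), with adjusted p in edgeR of at most 0.000547 in all 8 fits. On day 13 it did so without control mouse B (0.49), control mouse D (0.47) or day 13 mouse D (0.42). Between Rap 4 and day 13 it did so without day 13 mouse D (-0.49) or Rap 4 mouse C (-0.49).

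Grik4, which codes for GluK4, the other high-affinity subunit and a marker of CA3 neurons, was also higher on day 13, at 95.3, 97.2, 71.7 and 73.1 CPM against 71.8, 60.4, 62.2 and 60.3 CPM in control (log2 fold change 0.38, edgeR adjusted p = 0.0310). Day 13 mice A and B were its highest, mouse C lay just inside the control range, and without mice A and B it did not pass (0.18, edgeR adjusted p = 0.140). Grik1, Grik2 and Grik3 code for the subunits that can form channels alone, of which Grik1 and Grik2 were lower on day 13 with an edgeR adjusted p under 0.05 and Grik3 did not pass. Grik1, in the hippocampus mainly an interneuron subunit (ENSMUSG00000022935.16, chr16:87895900-88290265, minus strand), lay at 19.8, 21.7, 24.4 and 20.6 CPM in control, 19.8, 21.0, 21.6 and 21.5 CPM on day 4 and 21.2, 20.7, 19.3 and 20.7 CPM on day 6. It lay at 19.6, 23.2, 16.8 and 20.2 CPM on day 8, 13.9, 12.2, 20.3 and 15.9 CPM on day 13 and 25.0, 22.4, 23.4 and 24.5 CPM in Rap 4 mice. Day 13 mouse C lay within the control range and the other 3 day 13 mice below it, whereas all Rap 4 mice lay above all day 13 mice. On day 13 the fold was just under the minimum (log2 fold change -0.50, edgeR adjusted p = 0.0419, and -0.26, edgeR adjusted p = 0.144 without mice A and B). It was called higher in Rap 4 mice than on day 13 (log2 fold change 0.63, SE 0.152, edgeR adjusted p = 0.0127), and in all 8 fits that leave out 1 mouse too (0.51 to 0.77), and without both day 13 mice A and B it was under the minimum (log2 fold change 0.40, edgeR adjusted p = 0.0290).

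Grik2, a subunit of principal cells, was lower in all 4 day 13 mice to a similar degree. It lay at 188, 175, 176 and 189 CPM in control, 135, 135, 138 and 136 CPM on day 13 and 186, 179, 169 and 188 CPM in Rap 4 mice. All day 13 mice, C and D included, lay below all control and all Rap 4 mice, and the log2 fold change of -0.44 (SE 0.0573, edgeR adjusted p = 0.00112) was under the fold minimum, as it was without mice A and B (-0.42, edgeR adjusted p = 0.00144). Against day 13, Rap 4 mice were higher by 0.42 on the log2 scale (edgeR adjusted p = 0.00167). Grik3 ranged from 49.4 to 67.8 CPM in control and 33.4 to 55.0 CPM on day 13, and did not pass on day 13 (log2 fold change -0.41, edgeR adjusted p = 0.0736) except without mice A and B (-0.41, edgeR adjusted p = 0.0301). Both with and without mice A and B, Grik5 was higher and Grik2 lower on day 13 at an edgeR adjusted p under 0.05, whereas Grik1 and Grik4 passed only with them.

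**Figure D3:**
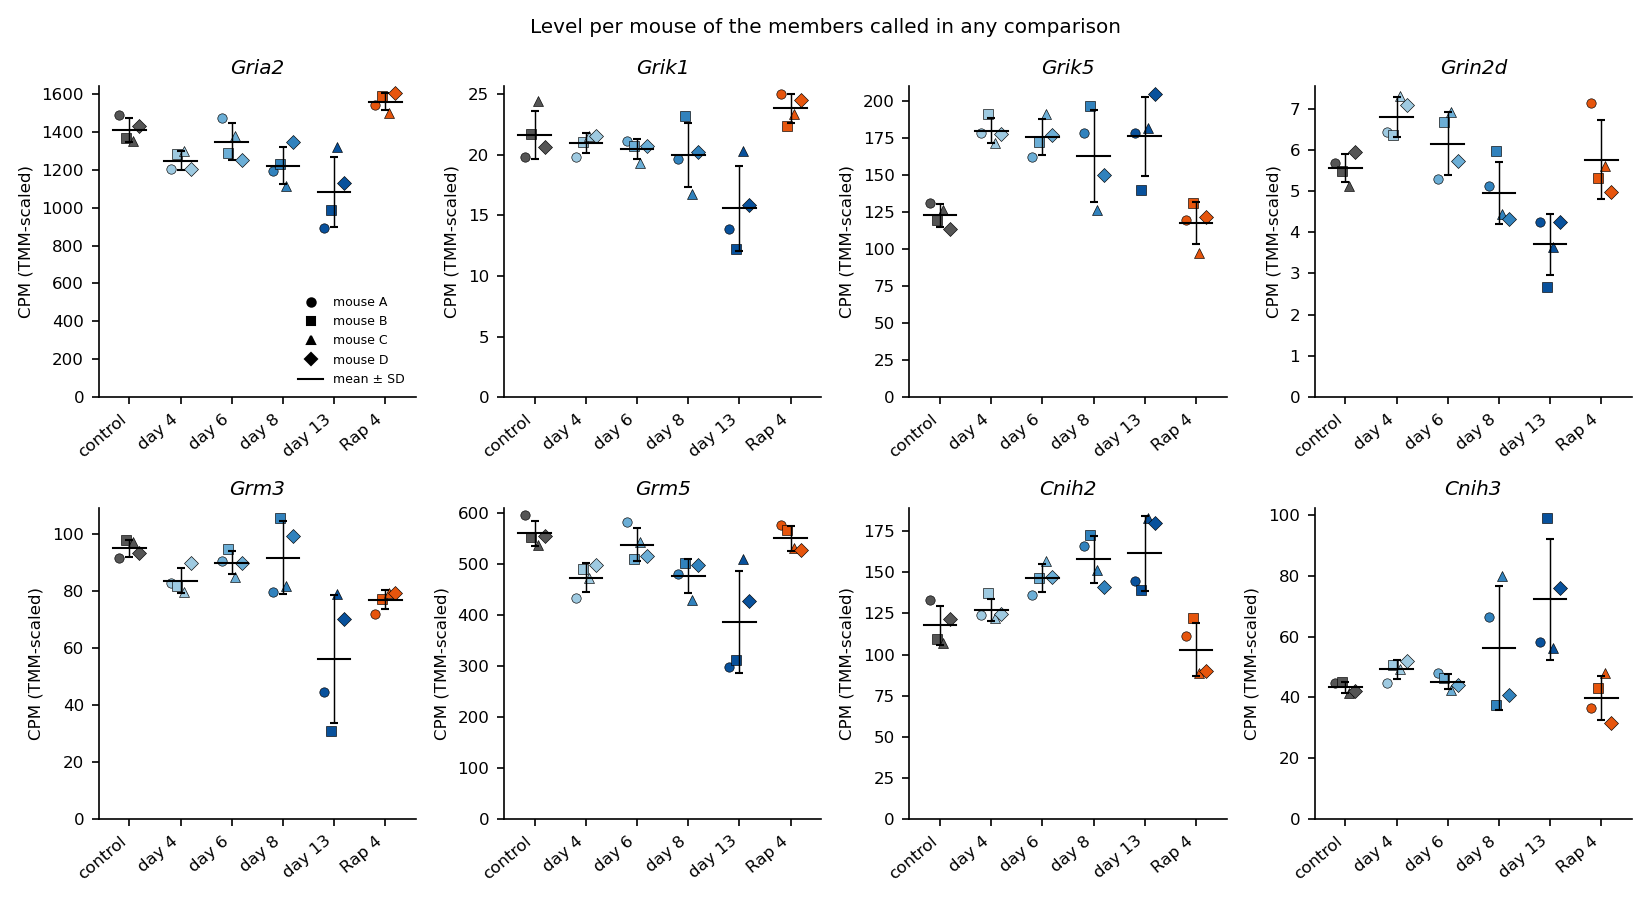
Level in CPM of the 8 members called in any comparison, by group; each symbol is 1 mouse (A to D), the line the mean and the bar the SD of 4 mice, and each axis starts at 0. Grik5 stands at 172 to 191 CPM on day 4 against 114 to 131 CPM in control, and day 13 mice A and B are the lowest in Gria2, Grik1, Grm3 and Grm5.

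Of the NMDA receptor subunits, 1 of 7 was called on day 13. Grin1 codes for the obligatory GluN1 subunit and ranged from 189 to 206 CPM in control and 218 to 253 CPM on day 13, where all mice were above control (log2 fold change 0.20, edgeR adjusted p = 0.0506, just above the threshold, and 0.23, edgeR adjusted p = 0.0461 without mice A and B). Of the Grin1 exonic bases, 13.5% also lie in exons of Grin1os on the opposite strand, with which it could share reads. Grin2b, the GluN2B subunit of early development and of extrasynaptic sites, ranged from 2042 to 2483 CPM in control and 1981 to 2300.5 CPM on day 13 (log2 fold change -0.06). Grin2a, the GluN2A subunit of mature synapses, ranged from 1164 to 1366 CPM in control and 895 to 1234 CPM on day 13 (log2 fold change -0.29, edgeR adjusted p = 0.0761). None of these 3 passed.

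The ratio of Grin2a to Grin2b reads within a mouse does not depend on library scaling. On the log2 scale it was -0.86, -0.83, -0.81 and -0.81 in control mice A to D, -0.84, -0.81, -0.73 and -0.88 on day 4 and -0.81, -0.86, -0.85 and -0.86 on day 6. It was -0.91, -0.93, -0.87 and -0.95 on day 8, -1.16, -1.30, -0.90 and -0.92 on day 13 and -0.72, -0.76, -0.84 and -0.79 in Rap 4 mice. On days 8 and 13 every mouse lay below every control mouse, and day 13 mice A and B were the lowest. The mean difference from control was -0.09 on day 8 and -0.24 on day 13, and Rap 4 exceeded day 13 by 0.29 (two-sided exact permutation test, p = 0.0286 in each, the smallest that 4 mice against 4 allow). Adjusted over the 14 ratio tests, each p was 0.133, which does not pass 0.05. Day 13 and day 8 overlapped (difference -0.16, exact p = 0.286), as did Rap 4 and control (0.05, exact p = 0.143).

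**Figure D4:**
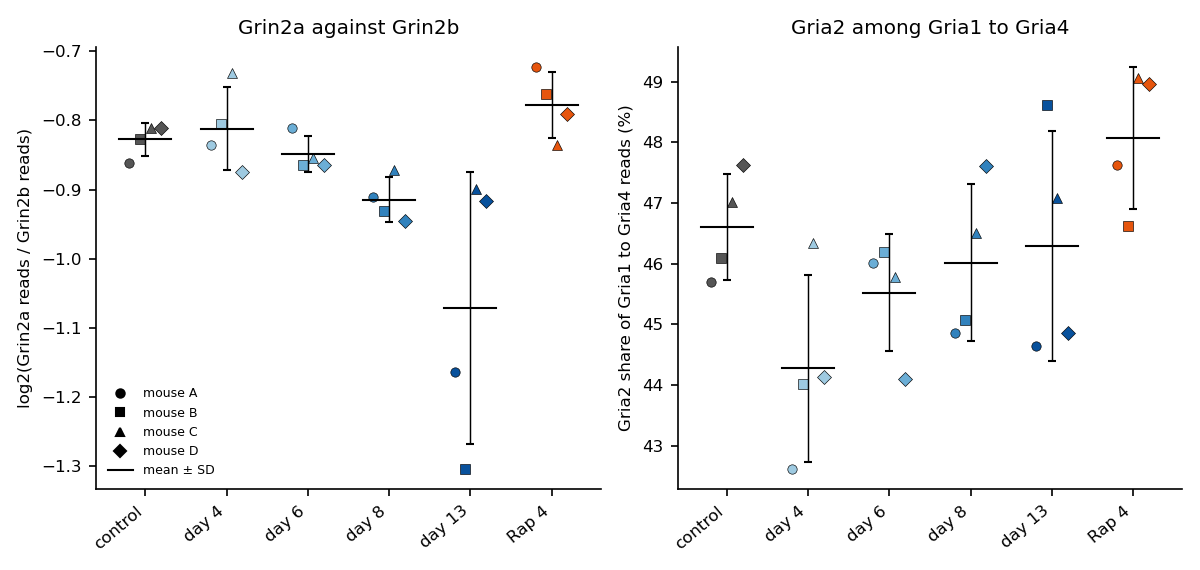
Left, log2 of Grin2a reads over Grin2b reads, and right, the share of Gria2 in the reads of Gria1 to Gria4 in percent, for each of the 24 mice by group; symbols are mice A to D, the line is the mean and the bar the SD of 4 mice. The left ratio is at -1.16, -1.30, -0.90 and -0.92 in the 4 day 13 mice, and the shares at right overlap between all groups and control.

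Grin2d, an NMDA receptor subunit typical of interneurons in the adult hippocampus (ENSMUSG00000002771.12, chr7:45831883-45878378, minus strand), was low throughout. It lay at 5.67, 5.49, 5.13 and 5.94 CPM in control mice, 6.42, 6.35, 7.31 and 7.09 CPM on day 4 and 5.30, 6.67, 6.91 and 5.72 CPM on day 6. It lay at 5.11, 5.96, 4.44 and 4.32 CPM on day 8, 4.24, 2.68, 3.63 and 4.26 CPM on day 13 and 7.15, 5.32, 5.60 and 4.97 CPM in Rap 4 mice. Every day 4 mouse was above every control mouse without passing the test (log2 fold change 0.29, edgeR adjusted p = 0.0798), and every day 13 mouse was below. The fall on day 13 was called (log2 fold change -0.61, SE 0.168, edgeR adjusted p = 0.0262), as was the higher level of Rap 4 over day 13 (log2 fold change 0.65, SE 0.191, edgeR adjusted p = 0.0284). Without mice A and B, the day 13 value was under the fold minimum (log2 fold change -0.49, edgeR adjusted p = 0.0368), and Rap 4 over day 13 had an edgeR adjusted p of 0.0574 (log2 fold change 0.54). The day 13 call was also lost without any 1 control mouse (edgeR adjusted p 0.0516 to 0.0728, log2 fold change -0.65 to -0.57) and without day 13 mouse B (-0.46). The Rap 4 call was lost without day 13 mouse B or Rap 4 mouse A, B or C (edgeR adjusted p 0.0528 to 0.0841). Of the Grin2d exonic bases, 9.66% also lie in exons of Gm45441.

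Grin2c and Grin3a, modulatory subunits of lower level, split the day 13 mice. Grin2c, which astrocytes also express, lay at 51.9, 50.4, 53.0 and 51.9 CPM in control and 12.02, 16.7, 52.0 and 37.4 CPM on day 13. Day 13 mice A and B were at less than any other of the 24 mice, mouse C was at the control level and mouse D between. The log2 fold change was -0.83 with an SE of 0.388, which did not pass (edgeR adjusted p = 0.138). On day 6, Grin2c ranged from 45.8 to 48.9 CPM, below every control mouse. Both Grin2c and Grin3a were called lower on day 13 in the fits on all 24 mice, by edgeR and DESeq2. Grin3a lay at 52.0, 46.8, 50.9 and 47.0 CPM in control and 31.9, 19.3, 46.7 and 38.8 CPM on day 13, with mice A and B again lowest (log2 fold change -0.55, edgeR adjusted p = 0.0985). Grin3b, at 0.484 to 0.613 CPM in control and 0.540 to 0.922 CPM on day 13, is too low for its difference to be told from the spread (edgeR adjusted p = 0.185). Grid1, the delta receptor subunit GluD1 that binds cerebellins across the synapse, ranged from 83.2 to 96.8 CPM in control and 67.9 to 82.2 CPM on day 13, below control in all 4 mice (log2 fold change -0.25, edgeR adjusted p = 0.0532), and did not pass. In Rap 4 mice Grid1 ranged from 73.4 to 83.0 CPM, also below every control mouse, and did not pass against control.

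Grm5 and Grm3 were the 2 metabotropic receptors that fell on day 13. Grm5, which couples to Gq and phospholipase C (ENSMUSG00000049583.15, chr7:87584168-88134907, plus strand), lay at 595, 552, 536 and 554 CPM in control, 432, 490.3, 472 and 497 CPM on day 4 and 581, 509.7, 542 and 515 CPM on day 6. It lay at 479, 501, 428 and 497 CPM on day 8, 298, 311, 508 and 427 CPM on day 13 and 576, 566, 531 and 527 CPM in Rap 4 mice. All mice of days 4, 8 and 13 lay below all control mice, while day 6 and Rap 4 mice overlapped with control. With folds under the minimum it passed on day 4 (log2 fold change -0.24, edgeR adjusted p = 0.0228) and on day 8 (-0.25, edgeR adjusted p = 0.0272). It was called on day 13 (log2 fold change -0.55, SE 0.163, edgeR adjusted p = 0.0329) and between Rap 4 and day 13 (log2 fold change 0.52, SE 0.162, edgeR adjusted p = 0.0347). Without day 13 mice A and B the day 13 difference was -0.26 (edgeR adjusted p = 0.0458), close to the values of days 4 and 8, and that of Rap 4 over day 13 was 0.24 (edgeR adjusted p = 0.0696). The day 13 call was lost in 6 of 8 fits with 1 mouse left out, namely any control mouse and day 13 mice A and B (log2 fold change -0.57 to -0.44, edgeR adjusted p up to 0.0819). The Rap 4 call was lost in 6 of 8 as well, without any Rap 4 mouse and without day 13 mouse A or B (0.41 to 0.54).

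Grm3, a group II receptor found on glia as well as neurons (ENSMUSG00000003974.6, chr5:9485541-9725170, minus strand), lay at 91.6, 97.9, 97.2 and 93.5 CPM in control, 83.0, 81.9, 79.8 and 89.9 CPM on day 4 and 90.5, 94.7, 85.0 and 89.9 CPM on day 6. It lay at 79.9, 106, 81.7 and 99.5 CPM on day 8, 44.4, 30.8, 79.1 and 70.3 CPM on day 13 and 72.0, 77.4, 79.4 and 79.3 CPM in Rap 4 mice. Day 4, day 13 and Rap 4 mice all lay below all control mice, and day 13 mice A and B lay far below mice C and D. On day 4 Grm3 passed with a fold under the minimum (-0.18, edgeR adjusted p = 0.0322). The fall on day 13 was called (log2 fold change -0.78, SE 0.253, edgeR adjusted p = 0.0469), and without mice A and B it was -0.35 (edgeR adjusted p = 0.00423). With 1 mouse left out, it was lost without any control mouse or day 13 mouse A (log2 fold change -0.79 to -0.68, edgeR adjusted p up to 0.107). In edgeR, Grm3 was the 1 member with an adjusted p under 0.05 between Rap 4 and control, lower under rapamycin by 0.30 on the log2 scale (SE 0.0468, edgeR adjusted p = 0.00415). DESeq2 on the same mice gave 1 higher and 1 lower member there. In edgeR, Grm3 stayed below the fold minimum. Grm3 did not pass between Rap 4 and day 13 (0.46, edgeR adjusted p = 0.182).

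Beside Grm3 and Grin2c, astrocyte markers moved on day 13. Of 6 astrocyte markers, Gfap rose (log2 fold change 1.91, edgeR adjusted p = 0.00466, and 1.09 without mice A and B), Gja1 fell (-0.93, edgeR adjusted p = 0.0446, and -0.43 without mice A and B), and Aqp4, Aldh1l1, S100b and Aldoc were not called. The summed level of the 6 markers was 1039 to 1116 CPM in control, 1290.2 to 1947 CPM on day 13 and 862 to 952 CPM in Rap 4 mice, with none at 0. In Rap 4 mice, 3 of the 6 were called lower than in control, Gfap, Aqp4 and S100b. The part of these cells in the Grm3 and Grin2c values was not tested. The other group II receptor, Grm2, of whose exonic bases 9.60% also lie in exons of Gm28111 on the opposite strand, ranged from 27.4 to 39.4 CPM in control and 20.4 to 46.3 CPM on day 13, and the group III receptors Grm4 (10.9 to 17.1 and 10.5 to 24.7 CPM), Grm7 (118 to 139 and 84.7 to 146 CPM) and Grm8 (10.2 to 16.9 and 7.26 to 16.9 CPM), which sit on presynaptic terminals, also overlapped between the groups. None of these 4 passed in any comparison with all mice, and without day 13 mice A and B Grm7 passed on day 13 (-0.49, edgeR adjusted p = 0.00491) and in Rap 4 mice against day 13 (0.45, edgeR adjusted p = 0.00372).

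Among the auxiliary proteins, both cornichons were higher on day 13 than in control and lower under rapamycin than on day 13. Cnih3 (ENSMUSG00000026514.14, chr1:181352628-181460641, plus strand) lay at 44.6, 45.0, 41.4 and 42.0 CPM in control, 44.7, 50.8, 49.3 and 52.0 CPM on day 4 and 47.9, 46.4, 42.4 and 44.0 CPM on day 6. It lay at 66.5, 37.4, 80.0 and 40.9 CPM on day 8, 58.0, 99.1, 56.2 and 75.9 CPM on day 13 and 36.5, 43.0, 47.9 and 31.5 CPM in Rap 4 mice. All day 13 mice were above all control mice, on day 8 mice A and C were above and mice B and D below, and Rap 4 mice overlapped with control. The rise on day 13 was called (log2 fold change 0.72, SE 0.157, edgeR adjusted p = 0.0102), and so was the lower level of Rap 4 against day 13 (log2 fold change -0.85, SE 0.185, edgeR adjusted p = 0.00779). Without day 13 mice A and B they were 0.61 (edgeR adjusted p = 0.00282) and -0.73 (edgeR adjusted p = 0.00749). Both calls held with each mouse left out in turn (0.54 to 0.85 and -0.97 to -0.68).

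Cnih2 (ENSMUSG00000024873.7, chr19:5092868-5098521, minus strand), the more abundant cornichon, lay at 133, 109.6, 107 and 121 CPM in control, 124, 137, 122 and 125 CPM on day 4 and 136, 147, 157 and 147 CPM on day 6. It lay at 166, 173, 152 and 141 CPM on day 8, 145, 139, 183 and 179.8 CPM on day 13 and 111, 122, 88.7 and 90.2 CPM in Rap 4 mice. All mice of days 6, 8 and 13 were above all control mice, and those of Rap 4 overlapped with control and lay below all mice of days 6, 8 and 13. With folds under the minimum it passed on day 6 (0.31, edgeR adjusted p = 0.00711), day 8 (0.41, 0.00944) and day 13 (0.44, 0.0225). It was called lower in Rap 4 mice than on day 13 (log2 fold change -0.64, SE 0.136, edgeR adjusted p = 0.00701), also in all 8 fits that leave out 1 mouse (-0.74 to -0.57) and without day 13 mice A and B (-0.81, edgeR adjusted p = 0.000897). Without these 2 mice, 3 members were called against control on day 13, all of them higher: Grik5, Cnih2 and Cnih3.

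The other auxiliary and anchoring proteins were not called by edgeR in any comparison, though Shisa9 was called by DESeq2. Neto2 ranged from 78.1 to 84.4 CPM in control and 58.7 to 72.3 CPM on day 13, lower by 0.29 on the log2 scale (edgeR adjusted p = 0.0175). It had also passed on day 4 (-0.21, edgeR adjusted p = 0.0256), and was higher in Rap 4 mice than on day 13 by 0.36 (edgeR adjusted p = 0.00658). Neto1 was lower on day 13 than in control by 0.35 (edgeR adjusted p = 0.0164, and -0.23, edgeR adjusted p = 0.0315 without mice A and B). It was higher in Rap 4 mice than on day 13 by 0.39 (edgeR adjusted p = 0.0162). Without mice A and B, this last difference did not pass (0.27, edgeR adjusted p = 0.0507). Shisa9, also called CKAMP44, lay at 39.0, 36.9, 43.4 and 38.3 CPM in control and 16.6, 11.7, 35.3 and 26.5 CPM on day 13. All day 13 mice were below all control mice, with A and B lowest, and the large spread left it short of the threshold (log2 fold change -0.83, SE 0.289, edgeR adjusted p = 0.0590). Without mice A and B it was at -0.36, edgeR adjusted p = 0.0482. The calls of Shisa9 as lower on day 13 and higher in Rap 4 mice than on day 13 were made by DESeq2 on the same mice, by both tools on all 24 mice, and in edgeR without the filter on low counts, with the letter block or without day 13 mouse C. On day 6, before, Shisa9 had been higher than control in all 4 mice, at 45.4, 45.0, 45.8 and 48.9 CPM (log2 fold change 0.22, edgeR adjusted p = 0.0169). Shisa6 passed on day 6 (0.29, edgeR adjusted p = 0.0208) and Shisa7 on day 4 (0.22, edgeR adjusted p = 0.0362), and neither passed on day 13. Grip1 and Grip2 passed in none of the comparisons (day 13 log2 fold changes -0.01 and -0.09).

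Set side by side as classes, the median log2 fold change on day 13 was -0.39 over the 4 AMPA receptor subunits, -0.41 over the 5 kainate, -0.29 over the 7 NMDA receptor subunits, -0.24 over the 6 metabotropic receptors and -0.09 over the 9 auxiliary or anchoring proteins, where all genes had -0.04. For the AMPA class, all 4 folds were below 0 on days 4, 8 and 13. In each day 13 mouse, the median of log2 of the CPM over the control mean was, for the AMPA class, -0.60 in A, -0.62 in B, -0.11 in C and -0.22 in D. For the kainate class it was -0.07, -0.43, -0.09 and -0.42, for the NMDA class -0.39, -0.48, -0.01 and -0.25, and for the metabotropic class 0.03, -0.62, -0.28 and -0.39. The mice thus ranked differently from class to class. For the auxiliary class it was 0.19, -0.22, -0.11 and -0.16. On day 6 the auxiliary class had a median log2 fold change of 0.11, with 8 of 9 members above 0. Between Rap 4 and control the medians of the classes named here lay between -0.09 (NMDA) and 0.04 (AMPA). The delta class, with Grid1 alone, is not among them. Its log2 of the CPM over the control mean was -0.21, -0.36, -0.08 and -0.28 in day 13 mice A to D. In Rap 4 mice A to D it was -0.07, -0.15, -0.23 and -0.25. Over the 24 members below control on day 13, mouse B had the lowest level of the 4 in 14, mouse A in 5, mouse D in 3 and mouse C in 2. Mouse C had the highest level in 15 and mouse A in 6. These medians describe the lists, and no test was made over them.

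**Figure D5:**
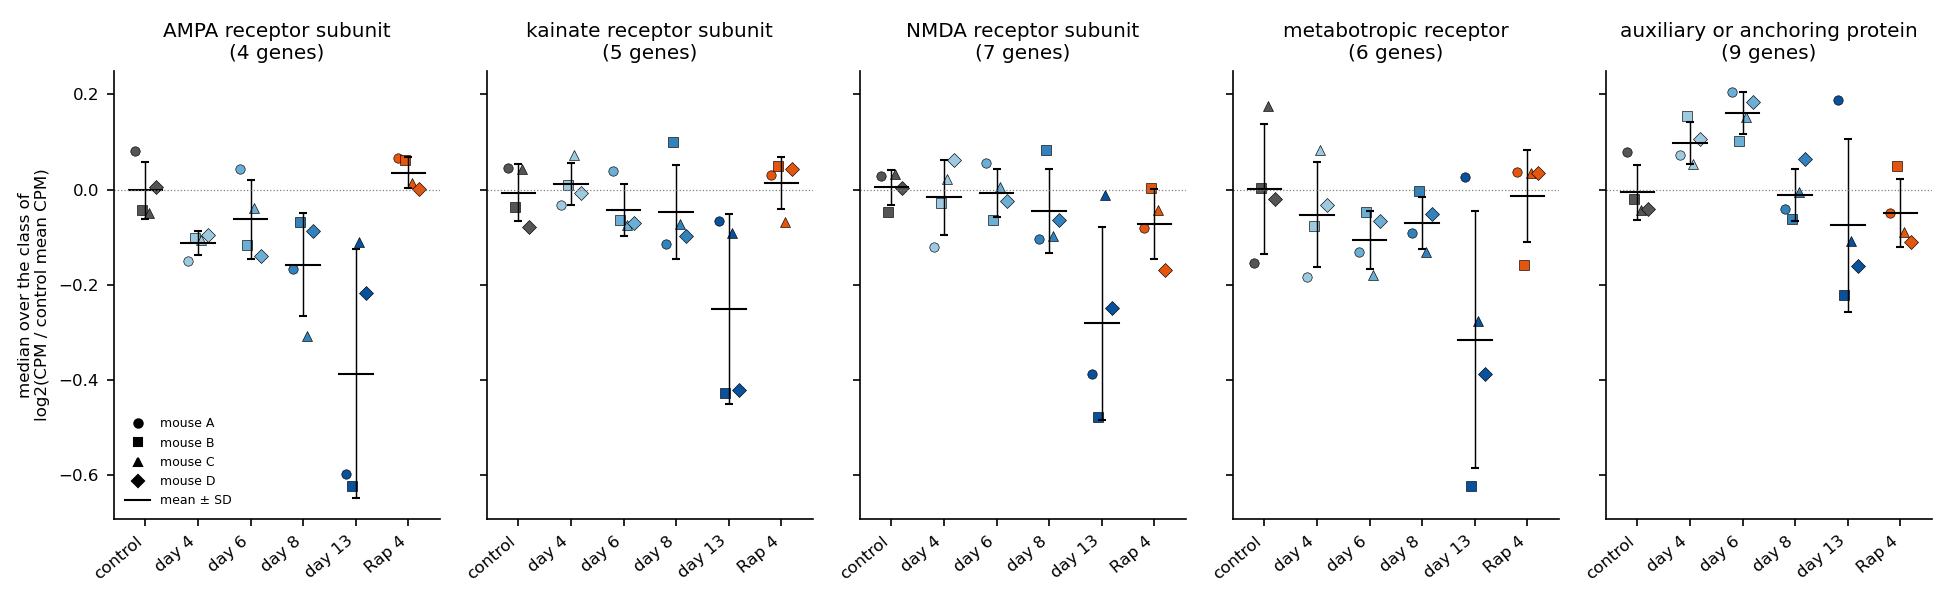
For each mouse and receptor class, the median over the genes of the class of log2(CPM over the control mean CPM), by group; symbols are mice A to D, the line is the mean and the bar the SD of 4 mice, and the dotted line marks the control mean. The AMPA class stands at -0.60 and -0.62 in day 13 mice A and B, and Rap 4 mice lie between 0.00 and 0.07. The delta class, with Grid1 alone, is not shown.

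Of 56 other genes of the glutamate synapse, 55 were tested (the receptor Grm6 did not pass the filter on low counts). On day 13, 8 were called higher (14.5%, against 8.40% of all genes) and 2 lower (3.64%, against 8.06%), with a median log2 fold change of 0.04. Without day 13 mice A and B, 6 were called higher and 1 lower (all genes: 9.67% called in either direction). Rap 4 against control gave none by edgeR or by DESeq2 on the same mice, and 10 had an unadjusted p under 0.05 (18.2%, against 18.1% of all genes). In Rap 4 mice against day 13, 3 were called higher and 9 lower (9.94% and 11.2% of all genes). On day 4 it was 1, against 0.680% of all genes (Shank1, a scaffold of the postsynaptic density, log2 fold change 0.69, edgeR adjusted p = 0.00113). On day 6 it was none by edgeR or DESeq2 (22 at an unadjusted p under 0.05, 40% against 24.2% of all genes). On day 8 it was 4, against 3.99% of all genes (Homer3, Nptx2 and Nptxr higher, Lrrtm4 lower).

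Neuronal pentraxins gather AMPA receptors from the synaptic cleft. Nptx2, a pentraxin induced by activity, had a mean of 16.6 CPM in control and 206 CPM on day 13 (log2 fold change 3.60, SE 0.517, edgeR adjusted p = 0.00168), and Nptxr, the pentraxin receptor, 417 and 767 CPM (0.86, edgeR adjusted p = 0.000874). Of the Homer scaffold genes, Homer1 rose by 1.32 (edgeR adjusted p = 0.0216), with the groups overlapping, and Homer3 by 0.92 (edgeR adjusted p = 0.000483). Reads were counted per gene, so the transcript forms of Homer1 were not told apart. Among other AMPA receptor partners, Gsg1l rose by 1.02 (edgeR adjusted p = 0.0109), Syndig1 by 0.91 (edgeR adjusted p = 0.000510) and Abhd6, a lipase that limits AMPA receptor delivery, by 0.52 (edgeR adjusted p = 0.00359). The 6 TARP genes (Cacng2, Cacng3, Cacng4, Cacng5, Cacng7 and Cacng8) were not called on day 13. The adhesion protein Lrrtm4 of dentate granule cell synapses fell from 51.5 to 22.4 CPM (-1.22, edgeR adjusted p = 0.00348). Of the vesicular glutamate transporters, Slc17a7 rose by 0.73 (edgeR adjusted p = 0.000508) and the sparse Slc17a8 fell by 0.64 (edgeR adjusted p = 0.0206). Without day 13 mice A and B, Gsg1l was higher by 0.53, Homer1 did not pass (0.97, edgeR adjusted p = 0.0937), nor did Slc17a8 (-0.44, edgeR adjusted p = 0.0783), and Abhd6 was under the fold minimum (0.45). Between Rap 4 and day 13, which shares the day 13 mice, the log2 fold change was -4.09 for Nptx2, -1.01 for Nptxr, -1.39 for Homer1, -0.81 for Homer3, -1.25 for Gsg1l, -1.10 for Syndig1, -0.59 for Abhd6, -0.79 for Slc17a7, 1.50 for Lrrtm4 and 0.54 for Slc17a8. These were called too, as were Dlgap3 (-0.54) and C1ql3 (0.82). Leaving out day 13 mice A and B, the call was lost for Homer1 (-1.03, edgeR adjusted p = 0.0552), Slc17a8 (0.35, edgeR adjusted p = 0.184), Dlgap3 (-0.41, edgeR adjusted p = 0.0617) and C1ql3 (0.39, edgeR adjusted p = 0.00676).

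Markers of the cells that carry these receptors were compared in the same way. Of 5 dentate granule cell markers, Calb1 fell on day 13 (log2 fold change -1.19, edgeR adjusted p = 0.00557, and -0.78 without mice A and B), and their sum was 401 to 451 CPM in control, 206 to 374 CPM on day 13 and 389 to 532 CPM in Rap 4 mice. In CA3, Cdh24 fell (-1.13, edgeR adjusted p = 0.00289) while the sum of 4 markers was 67.1 to 76.3 CPM in control and 57.3 to 90.6 CPM on day 13. In CA1, Pou3f1 rose (0.69, edgeR adjusted p = 0.00210), and the sum of 4 was 396 to 478 and 318 to 438 CPM. None of 7 interneuron markers was called on day 13 by edgeR or DESeq2, beside the called Grin2d. Of the 7, 4 had an unadjusted p under 0.05, as had 40.5% of all genes. Grik1 passed there only without the fold minimum, as did 1 of the 7 markers, which was lower. The median log2 fold change of the 7 was -0.17 (all genes: -0.04). Their sum was 369 to 402 CPM in control and 356 to 483 CPM on day 13. Of 4 genes of pyramidal and granule neurons in general, Neurod2 (0.89) and Slc17a7 rose, with a sum of 2365 to 3130.2 and 2650.1 to 3709.7 CPM. C1qa was called higher among 6 microglial markers (0.72, edgeR adjusted p = 0.0387, and 0.26 without mice A and B), and edgeR called no oligodendrocyte, precursor or endothelial marker on day 13. The choroid plexus sum varied between libraries, from 60.6 to 1683 CPM within the control group alone. Beside the 7 members called between Rap 4 and day 13, markers of most cell types were called there. Of 6 astrocyte markers, 4 were lower under rapamycin, Gfap most (-2.70, and -1.86 without mice A and B), and Gja1 was higher (0.89). Lower too were Aif1 and C1qa (-1.13) of 6 microglial, Cldn11 (-0.53) of 6 oligodendrocyte and Cldn5 (-1.06) and Pecam1 of 5 endothelial markers. Of the neuronal lists, Dsp, Tdo2 and Calb1 (1.43) of 5 dentate granule and Cdh24 (1.36) of 4 CA3 markers were higher. Wfs1 and Pou3f1 of 4 CA1 markers and Neurod2 (-0.62) and Slc17a7 of 4 general markers were lower. None of 7 interneuron markers was called by edgeR or DESeq2 (3 had an unadjusted p under 0.05, as had 43.2% of all genes). Without the fold minimum, 1 of the 7 passed, higher under rapamycin. The markers called there without day 13 mice A and B were Gfap, S100b, Aldh1l1, C1qa, Cldn11, Cldn5, Neurod2, Slc17a7, Tdo2, Calb1 and Cdh24. The part of these cells in the receptor values was not tested.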

How the data were processed

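Hippocampal total RNA of 24 mice was depleted of ribosomal RNA, made into stranded libraries and sequenced by the authors. The authors deposited raw read counts per gene, made with CutAdapt 1.16.5, STAR 2.7.2b and featureCounts 1.6.4 on GRCm38 with GENCODE annotation, and whether reads of several loci or of the opposite strand were counted is not given in the sources used here. Gene names, coordinates and exonic lengths were taken from GENCODE on the same build, and promoters from RefSeq on GRCm38.p6.

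For each of 7 comparisons, the counts of its 8 mice were filtered with filterByExpr, scaled by TMM and tested with edgeR 4.0.16 (quasi-likelihood, R 4.3.3), with Benjamini-Hochberg adjustment over all genes tested. A call needed an adjusted p below 0.05 and a log2 fold change beyond 0.5 either way, as in the study's methods. The fits were tested on counts simulated from the control and day 4 mice only, which does not cover the library sizes and spread of day 13. DESeq2 1.42.0, fits on all 24 mice, other scaling and filters, a block for the mouse letter and each mouse left out were alternatives. The Grin2a to Grin2b ratio and the Gria2 share were tested by two-sided exact permutation (70 arrangements). Members called in any comparison are given mouse by mouse, and the 10 other synapse genes named are those called on day 13. The members and lists were chosen with earlier results of these data known. CPM, levels per kb and ratios are descriptions on top of the counts, and exclusion of day 13 mice A and B was added after the values were seen. Totals of 28208561 to 126435936 counts limit precision most for Grin3b. The labels do not pair mice across groups, and the sex of single mice was not used.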

Additional observations from a re-analysis of the deposited data

Results flagged for a closer look

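In 7 members the difference from control was itself tested to differ between the rapamycin-treated and the untreated day 13 mice, by the comparison of these 2 groups, in which the controls cancel. The log2 fold change of Rap 4 over day 13 was 0.53 for Gria2, 0.63 for Grik1, -0.58 for Grik5, 0.65 for Grin2d, 0.52 for Grm5, -0.64 for Cnih2 and -0.85 for Cnih3, each called by edgeR. The values without day 13 mice A and B were 0.35, 0.40, -0.72, 0.54, 0.24, -0.81 and -0.73 in the same order, of which the last 2 and Grik5 were called. Rap 4 and day 13 mice also come from different series of animal numbers, whose meaning the sources used here do not give, and series and rapamycin cannot be told apart in these differences.

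On day 4, mouse B stood apart from the other 3 mice of its group in Cnih2, at 137.2 CPM against 124.6 CPM in the nearest. It was the only such value in 60 groups of 4 mice examined by Dixon's test, which chance alone would give in about 1 of 20 groups.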

How the results depend on the processing

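No value named in the report changed sign among called members under any alternative. Without a minimum on the fold, 5 members passed on day 4, 5 on day 6, 3 on day 8, 14 on day 13, 1 between Rap 4 and control and 13 between Rap 4 and day 13, while an absolute log2 fold change over 1 left 0 members in each of the comparisons that had any. With all 24 mice in the fit, edgeR and DESeq2 each called 8 members on day 13 (2 higher, 6 lower) and 1 between day 13 and day 8 (Grm3, lower). The share of all genes called in these fits is not given here, so these counts are not set against a background. Without day 13 mice A and B, the count was 3 on day 13 and 3 between Rap 4 and day 13. Leaving out 1 mouse at a time, the count of called members ran from 0 to 1 on day 6, from 1 to 10 on day 13 and from 4 to 11 between Rap 4 and day 13, and was the same as with all mice in the other comparisons. In the 3 comparisons where it moved, 0.852 to 1.67%, 11.1 to 20.7% and 14.7 to 24.1% of all genes were called. The difference of the Grin2a to Grin2b log2 ratio ran from -0.011 to 0.0367 on day 4, from -0.30 to -0.17 on day 13 and from -0.21 to -0.0787 between day 13 and day 8. The difference of the Gria2 share on day 13, which passed no test, ran from -1.08 to 0.242 percentage points. The mouse letters did not pair the mice: deviations of same-letter mice from their group means correlated at -0.39 to 0.26, and at most 1 of 4 mice correlated best with its own letter. With the letter as a block, 6 members were called on day 13 and 8 between Rap 4 and day 13, and the other counts did not move. The share of all genes is not given for the block either. Grik5 on day 13 fell under the fold minimum with the block (0.49) and without the filter on low counts (0.49). On day 8, a block for the number series that control and day 8 mice share left 0 members called by edgeR. Depth limits Grin3b and Grin2d most, whose levels rest on the fewest reads. The causes of these changes were not tested.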
